A study of Mus musculus with 8 samples.

Results

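Constitutive promoters are described here, the promoter regions that carried an open chromatin peak in every library of the study. They were chosen by measured values: the peaks of all 8 libraries were merged where they overlapped by 1 bp or more, and a region was kept when each of the 8 libraries had a peak in it and a transcription start site (TSS) of the GENCODE M21 annotation lay within 1 kb. The rule gave 6820 regions out of 183194 merged regions. Peak presence in all libraries was therefore fixed by the choice and is not a finding, and a promoter that was closed in any library could not be a member. Chromatin accessibility was measured by ATAC-seq, in which the Tn5 transposase cuts and tags DNA that is not covered by nucleosomes. The libraries came from cell lines derived from PyMT mammary tumors of mice whose strain is labelled FBV/N, in which the MMTV promoter drives the polyomavirus middle T oncogene, so that both genotypes carry the oncogene. Cells were WT or Lats1-CKO, in which the Hippo pathway kinase gene Lats1 is deleted in the epithelial compartment, and were sorted into a luminal (EpCAM-high, CD49f-high) and a basal-like (EpCAM-low, CD49f-high) population that was briefly expanded in culture. The 4 groups had n = 2 libraries each: the luminal cells gave BM1 and BM5 for WT and BM3 and BM7 for Lats1-CKO, and the basal-like cells gave BM2 and BM6 for WT and BM4 and BM8 for Lats1-CKO. The labels do not say whether the 2 libraries of a group came from separate lines, so the p-values measure the spread between these libraries.

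Promoters that are open in most cell types usually belong to housekeeping genes, whose products serve metabolism, translation, cell division and protein quality control. Such promoters tend to lie in CpG islands, stretches rich in G, C and unmethylated CpG dinucleotides, and often hold sites for general promoter factors: the GC box for Sp1-like factors, the CCAAT box for NF-Y, and sites for ETS factors, NRF1 or ZNF143. The TATA box, in contrast, is typical of strongly regulated genes. AP-1 and TEAD factors, the latter being the partners of the Hippo targets YAP1 and TAZ, are known mostly from distal enhancers.

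Sequences before the annotated TSS of 10 members are shown so that these elements can be read in place. Each is the 150 bases before the TSS (GRCm38, the same assembly as mm10, printed 5′ to 3′ in the direction of transcription), without annotated exon, from the gene of its class whose lowest score percentile over the 8 libraries was the highest. The rule gave 16 such genes, of which 10 had a CCAAT box and 3 a TATA box, and the 10 shown were picked after their sequences were seen. Capitals mark matches to the motifs searched on both strands: CCGGAAG for ETS factors, GCGCATGCG for NRF1, the letters CCAAT for the box of that name, GGGCGG for the box bound by Sp1-like factors, TGACGTCA for the cyclic AMP response element (CRE), AAGATGGCG for YY1, TCTCGCGAG for ZBTB33, ACTACAA for ZNF143, TATAAA for the box bound by TBP, CACGTG for the E-box, TGANTCA for AP-1 and GGAATG for TEAD. The share of all protein-coding promoters that hold each motif is given with the motif results.

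Mcm3 (chr1:20820313-20820462, minus strand): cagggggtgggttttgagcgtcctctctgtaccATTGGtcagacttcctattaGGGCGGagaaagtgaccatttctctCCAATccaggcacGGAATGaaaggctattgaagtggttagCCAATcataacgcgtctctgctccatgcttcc
Eif2ak3 (chr6:70844365-70844514, plus strand): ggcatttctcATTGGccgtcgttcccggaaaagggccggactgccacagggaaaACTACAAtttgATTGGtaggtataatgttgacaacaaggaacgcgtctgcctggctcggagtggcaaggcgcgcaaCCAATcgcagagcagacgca
Atp5e (chr2:174464106-174464255, minus strand): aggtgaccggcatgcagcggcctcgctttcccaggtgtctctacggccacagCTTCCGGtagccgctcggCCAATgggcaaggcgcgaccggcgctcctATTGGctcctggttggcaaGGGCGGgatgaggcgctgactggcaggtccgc
Hnrnpc (chr14:52104029-52104178, minus strand): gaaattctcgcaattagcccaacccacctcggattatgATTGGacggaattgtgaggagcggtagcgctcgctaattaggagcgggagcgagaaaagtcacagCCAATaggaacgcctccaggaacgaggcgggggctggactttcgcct
Med19 (chr2:84678252-84678401, plus strand): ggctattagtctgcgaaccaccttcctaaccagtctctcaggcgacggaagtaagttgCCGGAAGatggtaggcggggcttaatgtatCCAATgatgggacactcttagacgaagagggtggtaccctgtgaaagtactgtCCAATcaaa
Nf2 (chr11:4849537-4849686, minus strand): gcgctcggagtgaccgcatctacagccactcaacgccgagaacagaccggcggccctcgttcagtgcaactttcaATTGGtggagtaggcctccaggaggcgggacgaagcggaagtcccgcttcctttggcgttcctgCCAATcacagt

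Mcm3 encodes a subunit of the replicative helicase, Eif2ak3 a kinase of the initiation factor eIF2, Atp5e a subunit of ATP synthase, Hnrnpc a pre-mRNA binding protein, Med19 a Mediator subunit and Nf2 the Hippo pathway regulator merlin. All of these carried CCAAT boxes (read as ATTGG on the other strand), 3 in Mcm3 and in Eif2ak3 and 2 in each of the others. Med19 and Atp5e each also held 1 ETS core, Mcm3 and Atp5e 1 GC box, Eif2ak3 1 ZNF143 core and Mcm3 1 TEAD core. The next pair held a GC box and no CCAAT box in the bases printed. They belong to Ccna2, the cyclin of S phase and mitotic entry, and Sap30, a subunit of the Sin3 histone deacetylase complex. Sap30 also held 1 TEAD core, read as CATTCC on the other strand.

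Ccna2 (chr3:36572151-36572300, minus strand): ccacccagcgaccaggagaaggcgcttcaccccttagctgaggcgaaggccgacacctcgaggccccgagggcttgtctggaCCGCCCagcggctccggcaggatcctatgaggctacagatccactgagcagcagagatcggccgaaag
Sap30 (chr8:57487861-57488010, minus strand): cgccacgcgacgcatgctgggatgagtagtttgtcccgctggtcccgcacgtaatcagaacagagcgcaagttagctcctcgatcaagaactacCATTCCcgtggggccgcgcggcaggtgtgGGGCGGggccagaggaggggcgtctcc

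The last pair held a match to the TATA box letters, as did the ribosomal protein gene Rpl15 among those not printed. Such a match was found in 5.32% of members within 250 bases before to 50 bases after their nearest TSS. Here and below, TATA box means TATAAA on either strand at any distance from the TSS in the bases searched. Whether such a match works as a TATA box was not tested. Hist1h2ah is a replication-dependent histone gene, here with 2 CCAAT boxes as well, and Krt16 a keratin of stressed epithelium whose 150 bases contained 1 CpG dinucleotide against 5 for Hist1h2ah and 14 for Atp5e.

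Hist1h2ah (chr13:22035569-22035718, minus strand): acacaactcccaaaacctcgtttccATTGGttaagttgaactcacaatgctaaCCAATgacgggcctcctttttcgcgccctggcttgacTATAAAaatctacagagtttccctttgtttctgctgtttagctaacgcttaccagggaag
Krt16 (chr11:100248903-100249052, minus strand): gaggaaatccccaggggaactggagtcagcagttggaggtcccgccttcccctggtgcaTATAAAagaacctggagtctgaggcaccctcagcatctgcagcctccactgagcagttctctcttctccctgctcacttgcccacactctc

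Promoters made up a growing share of regions as more libraries shared them. A TSS lay within 1 kb of 11.8% of the regions found in 1 library, 31.6% of those in 7 libraries and 62.5% of those in all 8. The other 4087 regions present in all 8 libraries had no TSS within 1 kb and are called distal constitutive regions below. The number of members was limited mostly by the Lats1-CKO luminal library BM3, which had 14753 peaks where the other libraries had 51497 to 99022. Of the TSS regions with a peak in exactly 7 libraries, 3638 lacked it in BM3, 377 in the WT luminal library BM5, and 7 to 116 in any other library. Without BM3 the rule would give 10458 regions, more than 1.5 times as many, whereas leaving out any other library gave 6827 to 7197. These 10458 were among 22993 regions shared by the other 7 libraries, a smaller share than the 62.5% with BM3. At the distance limit, the members just inside were those of Stard13 and Gm35520, both 996 bp from their TSS, and the region just outside lay 1001 bp from Gsta4. The weakest peaks that were kept had the lowest score in the files, 13, which was the lowest score over the libraries in 19 members.

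**Figure D1:**
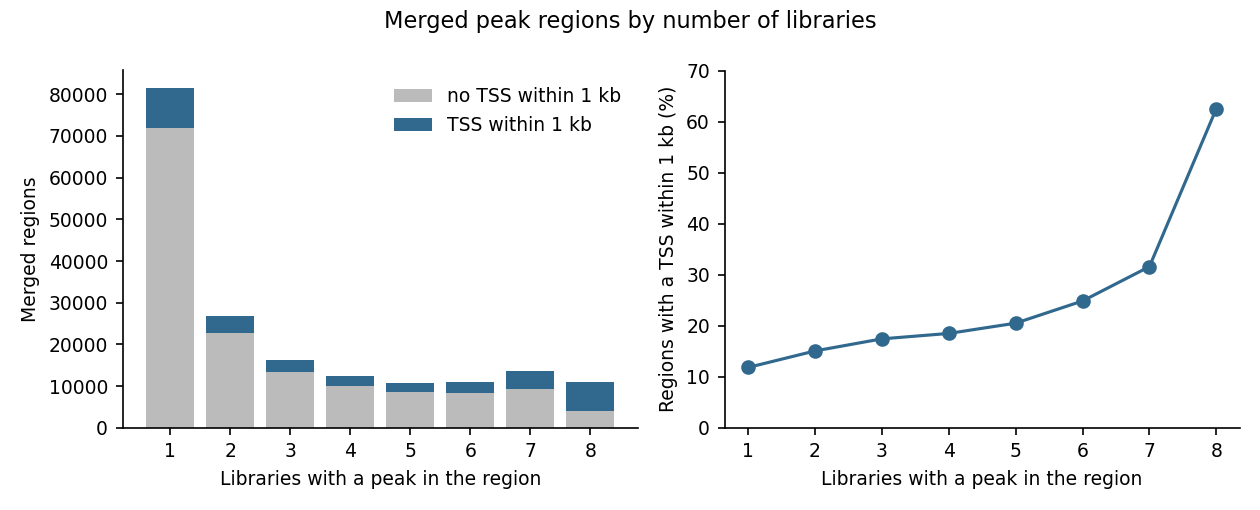
Left, the number of merged regions by the number of libraries with a peak, split by whether a TSS lay within 1 kb; right, the percentage with a TSS within 1 kb. The share climbs from 11.8% for regions of 1 library to 62.5% for regions of all 8.

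Within each library, the constitutive promoters stood among the stronger and wider peaks. The score in the files is a whole number given by the peak caller, which grows with the significance of a peak and with sequencing depth, so it was read as a percentile within a library (0 lowest, 100 highest). Against all peaks of the library, the median member was at percentile 91.7 in BM1, 86.9 in BM2, 65.7 in BM3, 89.99 in BM4, 84.4 in BM5, 87.5 in BM6, 92.1 in BM7 and 91.1 in BM8. BM3 was the lowest, and in that library 48.8% of the peaks lay in members, against 7.45% to 14.3% elsewhere. Promoter regions that were missing in 1 or more libraries had medians of 32.7 to 52.2. A member needed a called peak in every library, also in BM3 with its few peaks, which favors strong peaks. These levels therefore follow in part from the choice and are given without a test.

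The bases covered by peaks had a median over members of 348 in BM1, 319 in BM2, 187 in BM3, 308 in BM4, 242 in BM5, 284 in BM6, 335 in BM7 and 328 in BM8. Members were wider than the distal constitutive regions in every library, where the medians were 130 to 287 bp. In score the order varied: the median member was above the median distal constitutive region in 6 libraries but below it in BM2 (86.9 against 89.2) and BM5 (84.4 against 85.8). As both sets were picked for a peak in every library, these levels are given without a test. Merged over the libraries, the members spanned 113 to 1393 bp with a median of 415 bp. In each library 91.3% to 94.6% of members were covered by a single peak.

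**Figure D2:**
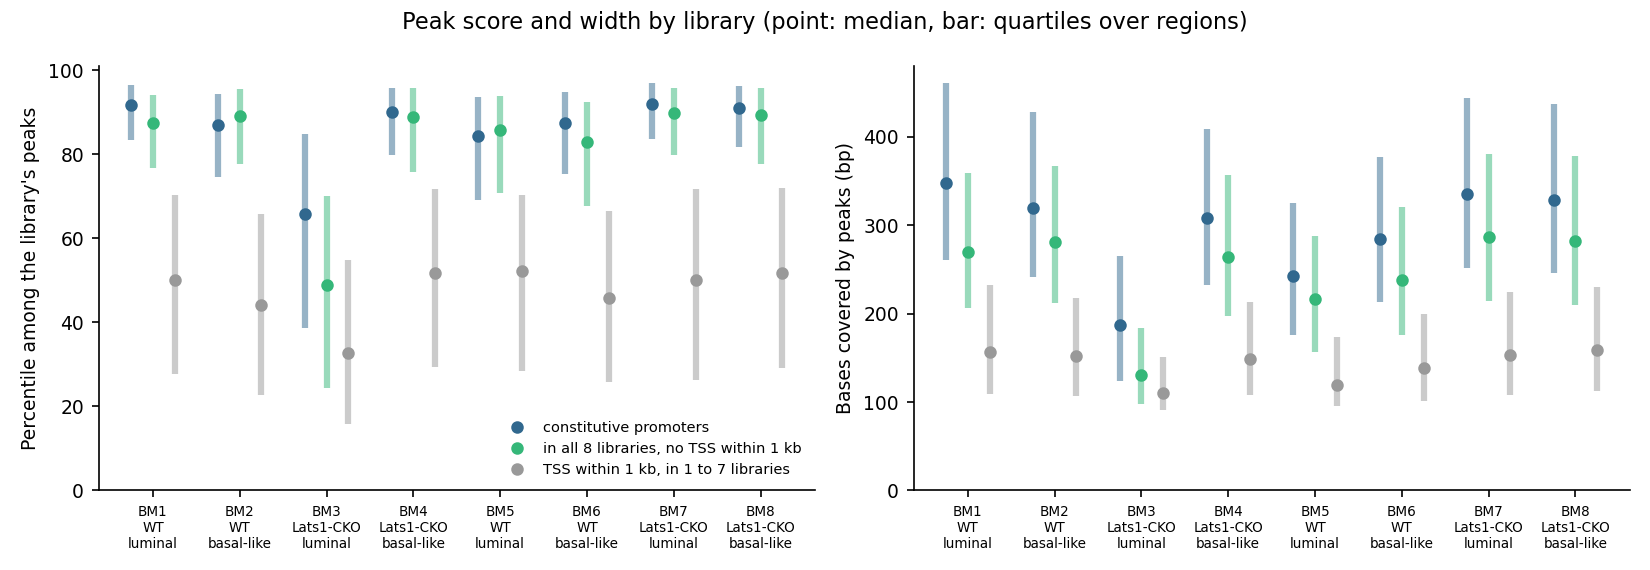
Percentile of the top peak among all peaks of the library (left) and bases covered by peaks (right) in each library, for constitutive promoters, distal constitutive regions and other TSS regions; points are medians and bars quartiles over regions. Constitutive promoters have the widest median in each of the 8 libraries, and BM3 and BM5 the narrowest.

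Most members contained a TSS. A TSS lay inside 5878 of them (86.2%), against 32.3% of the TSS regions that were not in all libraries. Those other regions were narrower, with a median merged width of 170 bp against 415 bp. A wider region is more likely to reach a TSS. The part of width in the contrasts of this paragraph with the other TSS regions was not tested. The centre of the median member was 31 bp upstream of the nearest TSS, with quartiles of 99 bp upstream and 16 bp downstream. Where several TSSs lay inside a member, protein-coding ones came first and then the one nearest the centre. That choice by itself brings the TSS close to the centre, so these distances are a description only. Protein-coding TSSs of different genes on opposite strands lay within 1 kb of 881 members (12.9%), against 5.26% of the other TSS regions. These bidirectional members had a median region width of 424 bp, close to the 414 bp of the rest. By gene, 6824 of 21951 protein-coding genes (31.1%) had a member within 1 kb of a TSS. The share was 50.5% of 190 lncRNA genes annotated as bidirectional promoter transcripts, 12.8% of 2959 antisense genes, 5.48% of 5854 lincRNA genes and 0.433% of 9940 processed pseudogenes. On the X chromosome 19.7% of protein-coding genes had a member, below the 26.5% to 39.2% of the autosomes.

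The share of genes with a constitutive promoter differed widely between gene classes. Of 40 DNA replication genes (helicase, polymerase, clamp and origin factors) 32 had a constitutive promoter, and of 38 DNA repair genes 30. The shares were 79.3% for chaperones, 76.9% for aminoacyl-tRNA synthetases, 72.5% for cyclins and cyclin-dependent kinases, 70.6% for splicing factors, 67.7% for ubiquitin-conjugating enzymes, 63.2% for translation initiation and elongation factors and 62.0% for RNA polymerase II, general factors and Mediator. All of these stood above the 31.1% of protein-coding genes as a whole. Immediate early genes, which respond to growth signals quickly, also ranked high with 24 of 32.

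The classes that make up ribosomes, proteasomes and mitochondria were represented less fully: 42 of 79 cytoplasmic ribosomal protein genes, 26 of 49 proteasome subunit genes, 43 of 80 respiratory chain and ATP synthase genes and 38 of 78 mitochondrial ribosomal protein genes. These shares depended on BM3. Counting regions with a peak in the 7 other libraries, an alternative chosen after seeing the data, the shares were 78.5%, 79.6%, 72.5% and 80.8%, and DNA replication reached 40 of 40, beside 9226 of 21951 protein-coding genes.

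At the other end, gene families used in few tissues had almost no constitutive promoter. No member lay near any of 1135 olfactory receptor genes, and 1062 of these had no peak in any library. Among 329 vomeronasal receptor genes there were 2, Vmn1r40 and Vmn1r4, the latter in a region that also reaches Nt5c3. Collagens had 1 of 44 (Col12a1), keratins 3 of 53 and chemokines and interleukins 6 of 64. Without BM3 these counts were 5, 3 and 8. The replication-dependent histones had 20 of 67. Reads were kept only when they aligned to 1 place, and the part of this in families of near-identical copies was not tested. Of the zinc finger genes named Zfp, 157 of 391 (40.2%) had a member.

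**Figure D3:**
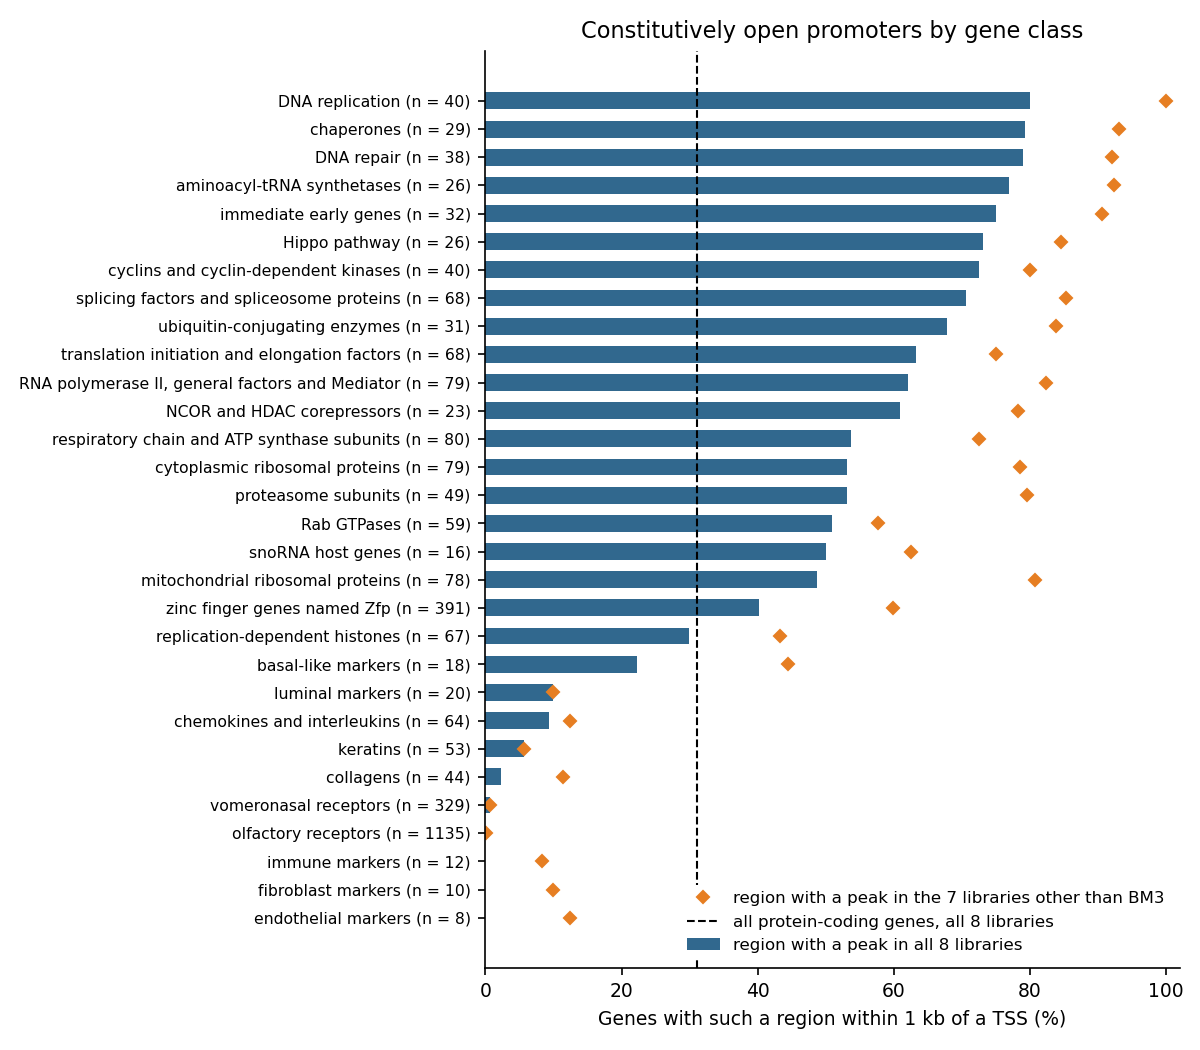
Percentage of genes of each class with a region within 1 kb of a TSS that had a peak in all 8 libraries (bars) or in the 7 libraries other than BM3 (diamonds); the dashed line marks all protein-coding genes (31.1%). DNA replication, chaperone and DNA repair genes lead at 78.9% to 80.0%, and olfactory receptors are at 0.

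To compare strength between libraries of different depth, each library's scores were ranked over the 10907 regions that all 8 libraries shared, giving a shared percentile. The strongest member by its lowest shared percentile was the promoter of Desi2 (a desumoylating isopeptidase; chr1:178187270-178187773), whose score was 1462 in BM1, 1349 in BM2, 366 in BM3, 1346 in BM4, 541 in BM5, 1167 in BM6, 1998 in BM7 and 1798 in BM8. The scores differed widely between libraries, whereas the shared percentile was 99.9 ± 0.07 (SD, n = 8). Next came Fh1 (fumarate hydratase of the citric acid cycle; 99.9 ± 0.09), Uggt2 (a glycoprotein folding sensor; 99.8 ± 0.15), Narf (99.8 ± 0.24) and the region shared by Cggbp1 and Zfp654 (99.8 ± 0.23). Abhd18, Mcm3, Chd6 (a chromatin remodeler), Tasp1 (the protease that cleaves MLL) and Hmgb2 (a DNA-bending chromatin protein) completed the first 10, and all 10 stayed above percentile 98.3 in each library. The 10 differed in extent, from 289.5 ± 11.8 bp covered in Uggt2 to 550 ± 139 bp in Narf. A shared percentile of at least 90 in all 8 libraries was reached by 133 members (1.95%) and by 26 distal constitutive regions (0.636%).

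The weakest members by mean were the promoters of Tcf12 (a basic helix-loop-helix factor; 1.92 ± 1.76), R3hdm2 (2.36 ± 2.72), Rbm28 (a nucleolar RNA-binding protein; 2.38 ± 1.99), Pdpr (a regulatory subunit of pyruvate dehydrogenase phosphatase; 2.81 ± 1.96) and Krt14 (2.82 ± 2.57; SD, n = 8 for each). Krt14 is a defining basal keratin, and its promoter had a score of 62 in BM1, 53 in BM2, 27 in BM3, 49 in BM4, 35 in BM5, 34 in BM6, 61 in BM7 and 129 in BM8. It was highest in a basal-like library, yet the luminal and the basal-like libraries overlapped. Width and score were different rankings: the widest members by mean covered bases were Setd5 (1014 ± 226 bp; the region also reaches Gt(ROSA)26Sor), Gsk3b (963 ± 132 bp), Rap2a (932 ± 196 bp), Sp1 (928 ± 114 bp) and Lims1 (927 ± 85.8 bp), and none of these was among the strongest. Setd5, a chromatin regulator of the SET family, was at a mean shared percentile of 41.5. Over the 6820 members the rank correlation of score and covered bases within a library was 0.211 to 0.525, a description in which both values come from the same peaks.

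The SD of the shared percentile over the 8 libraries had a median of 15.4 points in members and 19.2 points in distal constitutive regions. Members were above percentile 50 in all 8 libraries in 22.1% of cases and below it in 14.8%, and 0.924% were at or above percentile 90 in one library and at or below percentile 10 in another, against 5.29% of distal constitutive regions. Spearman's rho of the scores over the 6820 members was 0.572 to 0.709 for the 4 pairs of libraries from 1 group and 0.511 to 0.829 for the 24 pairs from different groups. Libraries of 1 group were thus not set apart from libraries of different groups in these promoters. These correlations are across regions, which share depth and base composition within a library.

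Members and other promoters differed in sequence, which the rule did not name. The rule favors strong peaks, however, and the part of this in the sequence contrasts was not tested. Taking for each protein-coding gene the TSS shared by most of its transcripts, 6175 genes had a member within 1 kb of it, 7077 had another peak region and 8601 had none. In the window from 250 bases before to 50 bases after the TSS, the median GC content was 62.0% for genes with a member, 58.0% for genes with another region and 47.7% for genes with none. The ratio of observed to expected CpG had medians of 0.806, 0.637 and 0.206. Windows with at least 50% GC and a ratio of at least 0.6 made up 78.7%, 49.5% and 10.15% of the 3 sets, and 42.3% of all 21853 protein-coding genes.

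The motifs differed as well. The GC box was in 71.5% of member promoters, 51.8% of those with another region and 17.6% of those with none (43.9% of all). The ETS core was in 20.99%, 11.7% and 3.14% (10.96% of all), and the CCAAT box in 45.7%, 31.4% and 40.1% (38.9% of all). NRF1 was in 4.41%, 2.18% and 1.35% (2.48% of all), YY1 in 3.61%, 1.88% and 0.384% (1.78% of all), ZBTB33 in 2.04%, 0.622% and 0.279% (0.888% of all), ZNF143 in 5.23%, 2.87% and 3.28% (3.70% of all), the CRE in 4.02%, 2.70% and 1.06% (2.43% of all) and the E-box in 10.8%, 8.80% and 4.62% (7.71% of all). In the other direction, the TATA box was in 5.46%, 9.75% and 20.1% (12.6% of all), AP-1 in 4.23%, 6.74% and 8.44% (6.70% of all) and TEAD in 11.01%, 13.3% and 15.0% (13.3% of all). Motifs rich in G and C are more frequent in GC-rich windows by letters alone. Among CpG-rich windows only, the CCAAT box was in 45.7% of member promoters, 27.1% of those with another region and 32.1% of those with none, and the GC box in 78.8%, 74.6% and 71.4%. The ETS core was in 23.2%, 17.3% and 11.9% of these windows, and the TATA box in 4.07%, 5.48% and 6.07%. AP-1 (3.09%, 3.48% and 2.64%) and TEAD (9.75%, 10.18% and 9.05%) differed little between the sets, and the order for the E-box was turned, with 11.3%, 11.8% and 13.6%.

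In the central 400 bases, members and distal constitutive regions, which the rule split by distance to a TSS, differed widely in some motifs and less in others. The GC box was in 78.0% of members and 15.7% of distal constitutive regions, and the ETS core in 22.8% and 3.35%. AP-1 was in 9.74% and 57.9%, and TEAD in 14.5% and 30.8%. The sets were closer in the CCAAT box (49.1% and 39.4%) and the E-box (12.8% and 7.63%). The 942 members with no TSS inside lay in between, with AP-1 in 27.1% and the GC box in 53.0%.

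Among the members, the CCAAT box was the motif whose share changed most, in percentage points, with the strength of the peak. With members ordered by mean shared percentile and cut into 10 equal sets of 682, it was in 27.4% of the weakest set, 45.0% of the fifth and 72.4% of the strongest, and the share was larger in each set than in the one before. ZNF143 changed more as a ratio, from 2.79% to 9.38%. Over the same sets the GC box was in 77.1% and 79.0% (weakest and strongest), the ETS core in 16.4% and 24.8%, NRF1 in 5.43% and 2.64% and AP-1 in 8.65% and 8.21%. The median GC content was 66.0% in the weakest and 62.9% in the strongest set. Each library showed the difference when ordered by its own scores: 67.0% to 72.0% of its strongest set and 28.7% to 37.8% of its weakest set held a CCAAT box, so that the ranges of the 8 libraries were far apart. Members with no CCAAT box in the central 400 bases (3471) had a median of the mean shared percentile of 43.8, those with 1 box (1815) 52.2, those with 2 (907) 65.6, those with 3 (375) 68.5 and those with 4 or more (252) 76.3. In the 133 members at or above percentile 90 in every library the share was 83.5%, against 31.9% of the 1012 below percentile 50 in every library. The printed genes led their class by lowest percentile, which was not high in every class: Krt16 had a mean shared percentile of 41.9. Strong members without the box exist: Ccna2 and Sap30, at mean shared percentiles of 97.4 and 93.8, had none in their printed bases.

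**Figure D4:**
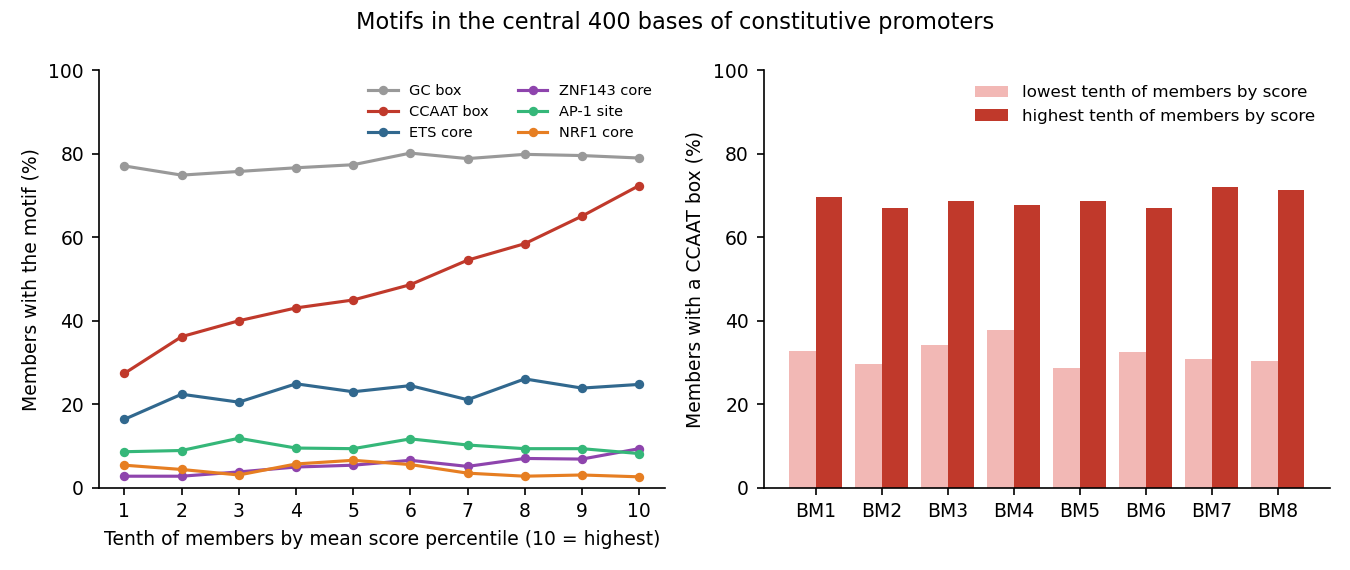
Left, percentage of members with each motif in their central 400 bases, in 10 equal sets by mean shared score percentile; right, percentage with a CCAAT box in the weakest and strongest set of each library. The CCAAT share runs from 27.4% to 72.4% across the sets, and the GC box stays between 74.9% and 80.2%.

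The same regions were then compared between genotypes and between populations, the contrasts the study was built on. The limma model gave a difference in shared percentile for each of the 10907 regions, with p-values adjusted by Benjamini-Hochberg over all of them. No member passed an adjusted p of 0.05 for Lats1-CKO minus WT in score (0 of 6820; 0% of all regions; smallest adjusted p = 0.847 by limma). At an unadjusted p under 0.05 there were 261 members (3.83%), 147 higher and 114 lower in Lats1-CKO, where 5.58% of all regions reached this level. All 4 Lats1-CKO libraries lay above all 4 WT libraries in 179 members (2.62%; 2.36% of all regions) and below them in 63 (0.924%; 1.28% of all regions). The median difference was 1.18 points over members and 0.43 over all regions, with a median standard error of 12.2 points for a single member.

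Between the populations (basal-like minus luminal) no member passed either (0% of all regions; smallest adjusted p = 0.919 by limma). An unadjusted p under 0.05 was found in 233 members (3.42%; 5.07% of all regions), 71 higher and 162 lower in basal-like cells. The 4 basal-like libraries lay above the 4 luminal ones in 48 members (0.704%; 1.28% of all regions) and below them in 116 (1.70%; 1.47% of all regions). The median difference was -1.50 points over members and 2.87 over the distal constitutive regions. Since both were ranked on 1 scale, a shift of one set is mirrored in the other. For the difference of the genotype effect between the populations, no member passed (0% of all regions; smallest adjusted p = 0.999 by limma), and 141 had an unadjusted p under 0.05 (2.07%; 2.69% of all regions).

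Covered width gave the same count. No member passed for genotype, population or their interaction (0% of all regions in each; smallest adjusted p = 1.00, 0.898 and 0.999 by limma). An unadjusted p under 0.05 was found in 231 members for genotype (3.39%; 3.89% of all regions), 287 for population (4.21%; 4.95% of all regions) and 164 for the interaction (2.40%; 2.48% of all regions). These counts do not show that the promoters were equally open in the 4 groups: with 2 libraries a group, the median standard error of a single member was 12.2 points in score and 9.78 points in width for genotype and for population, and 24.4 and 19.6 points for the interaction. The 5 alternatives of scaling and fitting that applied to both measures gave 0 members as well, and so did a fit without BM3, with 10458 members open in the other 7 libraries. Leaving out the Lats1-CKO luminal library BM7, after which BM3 stood alone for its group, gave 19, 44 and 18 members called in width (0.279%, 0.645% and 0.264% of members, beside 0.321%, 0.697% and 0.284% of all regions). In score, leaving out the Lats1-CKO basal-like library BM8 gave 1 member, Cadm2, in each of the 3 contrasts (0.0147% of members, beside 0.0458%, 0.0183% and 0.0183% of all regions), with BM4 then alone for its group.

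Members among those with the smallest p in each contrast are given as values, none of them being called. Ciart, a repressor of the circadian clock, had shared percentiles of 15.1 and 15.0 in WT luminal, 14.6 and 1.73 in WT basal-like, 75.9 and 76.8 in Lats1-CKO luminal, and 53.7 and 57.1 in Lats1-CKO basal-like libraries (BM1 and BM5, BM2 and BM6, BM3 and BM7, BM4 and BM8). All 4 Lats1-CKO libraries were above all 4 WT libraries, by 54.3 ± 12.3 points (SE; adjusted p = 0.847 by limma). Atad2b, a bromodomain ATPase gene, was at 59.2 and 39.0, 59.5 and 41.5, 91.5 and 91.1, and 90.2 and 92.8 in the same order, with a difference of 41.6 ± 10.4 points (adjusted p = 0.847 by limma). Both promoters were therefore ordered by genotype in either population. With percentiles taken among all peaks of the library, the differences were 34.7 points for Ciart and 11.2 points for Atad2b.

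The promoter of Mblac2, whose region also reaches the RNA polymerase III subunit gene Polr3g, stood at 93.4 and 87.7 in WT luminal, 95.6 and 90.2 in WT basal-like, 97.7 and 93.6 in Lats1-CKO luminal, and 56.3 and 51.8 in Lats1-CKO basal-like libraries. It was lowest in the Lats1-CKO basal-like pair, with an interaction of -43.9 ± 11.6 points (SE; adjusted p = 0.999 by limma). Gm43183, an unclassified transcript, was at 3.36 and 3.41 in the Lats1-CKO basal-like libraries and at 59.1 to 95.4 in the others. Among all peaks of the library the interaction of Mblac2 was -7.89 points, and the genotype difference of Gm43183 was -34.5 points in place of -52.0.

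By population, the lincRNA Gm43349 was at 78.6 to 89.0 in the 4 luminal libraries and at 1.15 to 33.3 in the 4 basal-like ones (difference -65.3 ± 13.6 points, or -36.9 among all peaks of the library, adjusted p = 0.919 and 0.932 by limma). In the other direction, Trrap, a scaffold of histone acetyltransferase complexes, was at 5.79 to 12.6 in luminal and 25.1 to 51.1 in basal-like libraries (29.5 ± 9.19 points, adjusted p = 0.919 by limma). The region shared by 1110020A21Rik and Ppm1b was at 1.86 to 24.5 in luminal and 24.4 to 67.2 in basal-like libraries, which overlap by a small margin. Slc45a4, with its TSS 613 bp from the region, and Acox3, a peroxisomal oxidase, had the smallest p for a positive interaction: Slc45a4 was at 81.9 and 86.0 in WT luminal, 75.3 and 6.96 in WT basal-like, 8.66 and 16.6 in Lats1-CKO luminal and 90.1 and 80.5 in Lats1-CKO basal-like libraries, so that its WT basal-like pair was itself split.

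**Figure D5:**
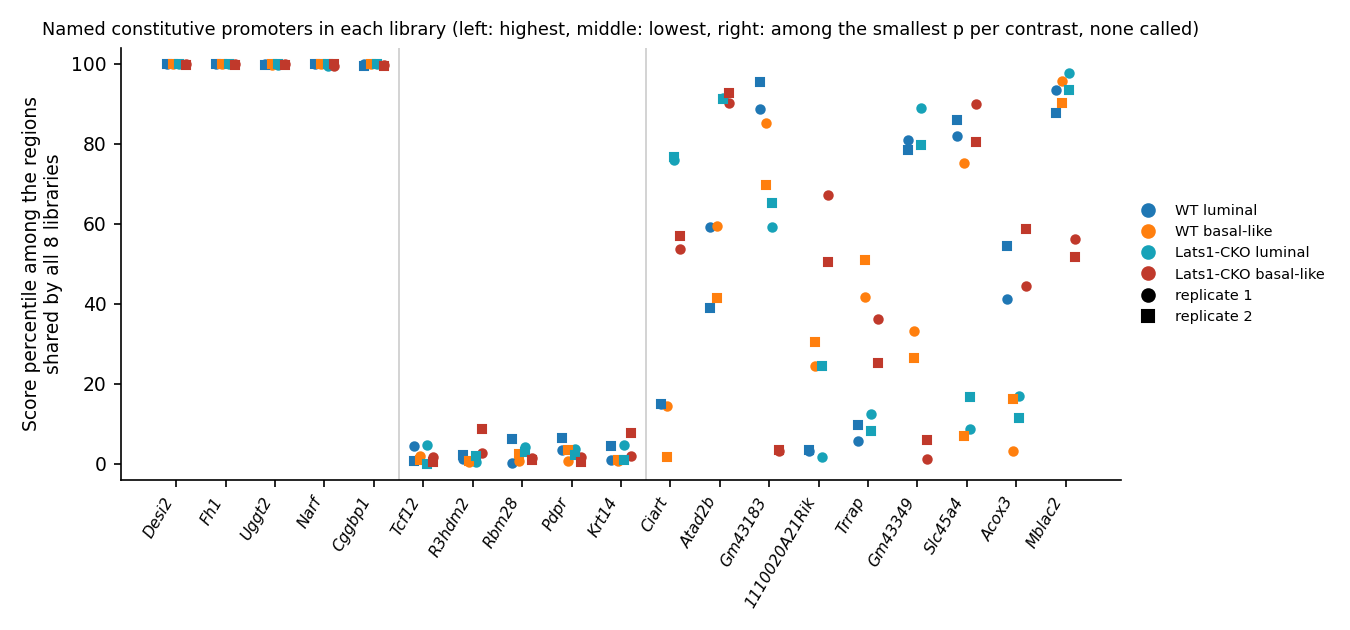
Shared score percentile of single members in each library (colors mark the group, circles replicate 1, squares replicate 2): the 5 strongest at left, the 5 weakest in the middle and members among those with the smallest p per contrast at right, none of which passed the adjusted test. Ciart and Atad2b separate by genotype, and Mblac2 is at 56.3 and 51.8 in Lats1-CKO basal-like cells and at 87.7 or more elsewhere.

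Gene classes were described by the median of their members' differences. Beside these stand the medians of 1.18 (genotype) and -1.50 (population) over all members, and of 0.43 and -0.20 over all regions. No member of any class passed the adjusted test in score. For genotype, the proteasome subunits had a median of 9.41 points, with 21 of 29 members above 0, and the cytoplasmic ribosomal proteins 5.95 points, with 27 of 42 above 0. The respiratory chain members were at -0.16 points, with 20 of 43 above 0. For population, the splicing factors had a median of -5.68 points, with 16 of 55 above 0, the mitochondrial ribosomal proteins -3.51 points, with 9 of 41, and the replication-dependent histones -8.28 points, with 3 of 14. The zinc finger genes were at 0.09 points, with 86 of 170 above 0. Over all members, 3747 of 6820 were above 0 for genotype and 2958 for population. By level, the mean shared percentile had its highest class medians in Rab GTPases (71.2, 31 members), snoRNA host genes (66.6, 8 members) and chaperones (62.8, 23 members), and lower ones in splicing factors (40.8, 55 members) and replication-dependent histones (30.4, 14 members), beside 51.2 over all members.

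The Hippo pathway, in which the kinases Stk3 and Stk4 activate Lats1 and Lats2 to restrain YAP1 and TAZ, had a member for 19 of 26 genes, with a median genotype difference of 5.61 points, 14 of 22 members above 0 and none called. Ctgf and Cyr61 were also on this list but were not found in the annotation under these symbols, so they were not counted. The promoter region of Lats1 itself (chr10:7681445-7681988) was not a member. It had a peak in 7 libraries, with scores of 109 in BM1, 103 in BM2, 202 in BM4, 59 in BM5, 88 in BM6, 182 in BM7 and 197 in BM8, and none in BM3. A peak at the promoter does not check the deletion.

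Lats2 (chr14:57746047-57746324) was a member with shared percentiles of 47.7 and 2.81 in WT luminal, 7.76 and 22.1 in WT basal-like, 69.95 and 3.89 in Lats1-CKO luminal, and 31.1 and 35.5 in Lats1-CKO basal-like libraries. The spread within the luminal pairs was as wide as that between groups. Nf2 stood higher, at 75.2 to 95.2 over the 8 libraries. Yap1 had 2 members, at 0.26 to 56.6 and at 1.27 to 41.2. Of 23 genes of the NCOR and HDAC corepressor complexes, 14 had a member, with a median genotype difference of 2.87 points and none called. Sap30 (89.2 to 98.4) and Rcor1 (87.2 to 99.8) were strong throughout, whereas Ncor1, the scaffold that recruits Hdac3, was at 8.78 to 35.3 and Hdac3 at 0.24 to 54.6.

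Few markers of cell type had a member. Of 20 luminal marker genes 2 had a member (Gata3 and Krt8, both in regions centred more than 1 kb before the nearest TSS), although 8 to 20 of them had a peak near a TSS in each library. Of 18 basal-like marker genes 4 had one (Krt14, Mylk, Snai2 and Tagln), and 5 to 14 had a peak in each library. Without BM3 the basal-like count was 8 of 18, while the luminal count stayed at 2. No marker of fibroblasts (of 10), immune cells (of 12) or endothelium (of 8) had a member, and without BM3 there was 1 of each. By library, peaks near these markers were found for 0 to 7 fibroblast, 0 to 5 immune and 0 to 5 endothelial genes, with BM3 at 0 for each; their part in the values above was not tested. Luminal marker genes with a peak numbered 20 and 18 in WT luminal, 17 and 13 in WT basal-like, 10 and 19 in Lats1-CKO luminal and 8 and 11 in Lats1-CKO basal-like libraries. Basal-like marker genes with a peak numbered 12 and 11, 12 and 12, 5 and 14, and 12 and 11 in the same order. Their counts did not separate the populations, and the highest, 14, was in the luminal library BM7.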

How the data were processed

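ATAC-seq peaks of 8 libraries were analysed, 2 for each of 4 groups taken from the labels. Per the labels and the study's methods, the authors trimmed reads with cutadapt, aligned them uniquely to mm10 with Bowtie 1.0.0, removed mitochondrial reads and duplicates (Picard 2.3.0), left out long fragments, called peaks in each library with MACS2 (2.1.1.20160309 in the submitters' processing notes) and removed blacklisted regions. Replicates were not pooled in the deposited peak files. The study discarded a Lats1-CKO luminal replicate for quality when merging alignments. Which one is not given in the sources used here, so both were kept. The deposited score, lowest value 13, was taken to be the significance score of MACS2. It was not normalized between libraries, and the files used here hold no counts or depth per library, so count-based differential tests could not be repeated.

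Peaks were merged and matched to GENCODE M21 TSSs in python 3.11.15. The top score and the covered bases of each region were turned into percentiles within a library over the 10907 regions shared by all 8 and fitted with limma 3.58.1 (R 4.3.3; 4 group means, variance trend, Benjamini-Hochberg adjustment over all regions, called at 0.05), with the script tested on simulated data. Sequences came from GRCm38. Motifs were searched by exact match in the window from 250 bases before to 50 after the TSS, or in the central 400 bases.

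The members, gene lists and tests were chosen with earlier results of these data known. Named were the 10 members with the highest lowest percentile, the 5 weakest, the 5 widest, the 2 with the smallest p per contrast and direction where none was called, the 2 leading genes of each list, and listed studied and marker genes. Some items that this rule names are not reported here. Alternatives were other merging, distance and score limits, other scalings and fits, and leaving out each library.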

Additional observations from a re-analysis of the deposited data

How the results depend on the processing

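The number of constitutive promoters depended on the score limit and on BM3. It was 4095 when only peaks at or above the median score of their library were used and 1909 when each library was limited to its 10000 top peaks by score. Leaving out each library gave 6827 to 10458, the highest without BM3. It was 6820 with touching peaks merged, 6528 within 500 bp of a TSS and 6278 with protein-coding transcripts only.

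Under 6 other scalings and fits of the score and 5 of the width, limma called 0 members in each contrast. At an unadjusted p under 0.05 the settings fitted over all regions gave 0.543% to 5.35% of members for genotype in score (all regions 1.08% to 6.71%), 0.367% to 4.15% for population (0.834% to 5.91%) and 0.469% to 2.80% for the interaction (0.724% to 3.34%). In width they gave 3.09% to 4.22% (3.56% to 4.66%), 4.21% to 4.99% (4.95% to 5.47%) and 2.26% to 2.89% (2.26% to 3.11%). The share of members was below that of all regions under each of these settings. Leaving out each library gave 0 to 1 called members in score for genotype, 0 to 1 for population and 0 to 1 for the interaction. The 1 was Cadm2, named after its values were seen, without Lats1-CKO basal-like replicate 2 (adjusted p = 0.0154, 0.0159 and 0.00867 by limma). In width the ranges were 0 to 19, 0 to 44 and 0 to 18, the highest without Lats1-CKO luminal replicate 2. In these fits the lone sample left in a group is assumed to vary like the other groups. A fit without BM3 over the 22993 regions of the other 7 libraries, chosen after seeing the data, called 0 of 10458 members in each contrast of score and width. The library weights could not separate libraries within groups of 2. No paired analysis was possible because the labels give no pairing of the replicates.

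The limits lie in the design and the unit. With 2 libraries a group and no read counts, differences as large as 54.3 points (Ciart) and -65.3 points (Gm43349) did not pass the adjusted test. BM3 had the fewest peaks, and without it the Lats1-CKO luminal group rests on BM7 alone.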

Other observations

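The 3638 promoter regions that lacked a peak in BM3 alone were open in the other 7 libraries, but with weaker peaks than the constitutive promoters. The sets differ by a called peak in BM3, the library with the fewest peaks. Weaker and narrower peaks therefore follow in part from the choice, and the values are given without a test. Their median percentile among all peaks of a library was 62.4 to 77.1 in these 7 libraries, against 84.4 to 92.1 for the constitutive promoters. Their median covered width was 146 to 223.5 bp, against 242 to 348 bp. In their central 400 bases 36.2% held a CCAAT box, 53.7% a GC box and 17.6% an AP-1 site, where the constitutive promoters had 49.1%, 78.0% and 9.74%. Median GC content there was 59.5% and the median ratio of observed to expected CpG 0.669, against 64.25% and 0.81 in the constitutive promoters.

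The promoter of Cadm2, a cell adhesion gene, was chosen after its values were seen. Its shared percentile was 98.8 to 99.8 in 7 libraries and 37.1 in BM4, the first Lats1-CKO basal-like library, while BM8 of the same group was at 99.5. The scores were 232 in BM4 and 1456 in BM8. The difference thus lay within a group, and its cause was not tested.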
